A study of Mus musculus with 40 samples.

Results

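The regions described here are 1218 bins of 1 kb in which many CpG cytosines of liver DNA were listed and these carried almost no methylation, out of 82753 bins with at least 1 listed CpG. Bins were laid end to end along each chromosome. They were selected on 2 measured values, a count of 30 or more listed CpG cytosines and a bin mean below 10%, where the bin mean is the mean over its cytosines of each cytosine's mean methylation level over the mice. Both values chose the members, so the low level itself is a description and was not tested. The rule left out a short segment of chromosome 17, which held 6 bins of 30 or more cytosines, none of them below 10%. The clusters made up 96.1% of the 1267 bins with 30 or more listed cytosines and held 46247 of the 400298 listed cytosines, or 11.6%. On assembled chromosomes only 20.4% of the CpG cytosines of the clusters were listed, and the others have no value.

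DNA came from the livers of 40 C57BL/6J males of 9 weeks, with 10 mice in each of 4 groups that crossed the diet of the dam, low fat (LF) or high fat (HF), with the diet fed after weaning, again LF or HF. The groups are written dam diet first, so that LF_HF mice were born from LF fed dams and fed HF after weaning. The fat of the diets was mainly coconut oil, and dams received their diet before and throughout pregnancy and until weaning. The males of a cage were divided between the post-weaning diets and litters were not given in the labels, so that mice of 1 group, and of the groups set against each other for post-weaning diet, may be siblings. The tests treat all mice as independent. Methylation was measured by reduced representation bisulfite sequencing (RRBS), in which the enzyme MspI cuts at CCGG, fragments are selected by size, unmethylated cytosines are converted and each CpG is read as methylated or not. Because liver is a mixture of cell types, a change in the level within a cell type and a change in the share of that cell type cannot be told apart. Read counts at listed CpGs were summed over cytosines, so that a read counts once for each cytosine it covers. These sums, called total reads below, ranged from 2969907 to 23345592 per mouse, with 5 mice below 5000000. At the clusters they ranged from 271559 to 2495440. Within a mouse the median depth of a covered cluster cytosine was 12 to 53 reads, and values with fewer than 10 reads are missing.

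CpG dinucleotides are rare in most of the mouse genome because methylated cytosine mutates readily to thymine. CpG islands are stretches that kept their CpGs and are usually free of methylation in the germline and in most tissues. Many lie over the promoters of housekeeping and developmental genes. Methylation of such a promoter goes with stable silencing, as on the inactive X chromosome and at imprinted genes. The base composition of the clusters was of this kind. Their median content of G and C was 66.0%, with 91.0 CpGs and 12.0 CCGG sites per kb and a ratio of observed to expected CpGs of 0.851. Over all bins with a listed CpG the medians were 49.6%, 17 CpGs, 3 CCGG sites and 0.298. The bins most like the clusters were closer, with 64.3%, 73 CpGs, 10 CCGG sites and 0.746 in the 43 dense bins of 10% or more, and 60%, 64 CpGs, 8 CCGG sites and 0.731 in 7759 bins of 10 to 29 listed cytosines below 10%. The count of listed cytosines depends on both CpG and CCGG sites, so these features are partly tied to the rule. Features could be read for the 1216 clusters on assembled chromosomes, 2 others lying on unplaced contigs.

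A pair of clusters shows what such a region looks like, a cluster with 78 listed cytosines and the cluster with the lowest mean. Each is given as 240 bases of NCBI37/mm9 with the MspI site CCGG in capitals. The window is the one with the most listed cytosines in its bin.
Chd7, chr4:8617761-8618000, + strand: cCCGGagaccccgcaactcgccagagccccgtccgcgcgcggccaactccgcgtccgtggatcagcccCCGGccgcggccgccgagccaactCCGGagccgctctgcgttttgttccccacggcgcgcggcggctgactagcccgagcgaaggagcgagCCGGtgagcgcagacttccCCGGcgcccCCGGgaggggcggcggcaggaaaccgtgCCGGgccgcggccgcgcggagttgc
Ipmk, chr10:70810469-70810708, + strand: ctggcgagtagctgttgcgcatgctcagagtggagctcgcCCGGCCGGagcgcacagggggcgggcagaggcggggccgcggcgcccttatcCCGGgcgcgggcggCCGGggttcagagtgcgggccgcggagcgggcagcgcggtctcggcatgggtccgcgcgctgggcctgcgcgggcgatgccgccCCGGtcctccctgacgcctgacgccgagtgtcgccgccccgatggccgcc
The stretch at Chd7, which encodes a chromatin remodeller, held 41 CpGs, 7 CCGG sites and 43 listed cytosines, counted strand by strand. Its 5 cytosines at a cut site were read at 5.21% to 8.63% and the other 38 at 0% to 1.33%, with a median of 0.241%. At Ipmk, which encodes an inositol polyphosphate kinase, the 26 listed cytosines held 2 at a cut site, at 3.88% and 4.34%, and 24 others between 0% and 1.02%. In both stretches every cytosine at a cut site was above every other cytosine.

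The difference between cytosines at the cut and the rest held over the clusters as a whole. All 46169 cluster cytosines on assembled chromosomes lay within 50 bases downstream of a CCGG on their own strand, which is the length of a read. Of these, 7838 (17%) were the first base of the read, inside the CCGG that MspI cut, and 38331 lay further in. First-base cytosines averaged 5.80% and later ones 0.950%. No CpG can lie at bases 2 or 3, and from base 4 to base 50 the mean at each position stayed between 0.827% and 1.25%. The quartiles of the first-base cytosines were 4.46% and 6.52%, whereas those of the later cytosines were 0.189% and 0.829%, and none of the first-base cytosines but 3510 of the later ones (9.16%) were never read as methylated in any mouse. First-base cytosines were higher than the later ones in 1212 of 1216 clusters, with a median difference of 4.80 percentage points. In the 4 others it lay between 0 and -2.11. The cause of the difference was not tested.

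**Figure D1:**
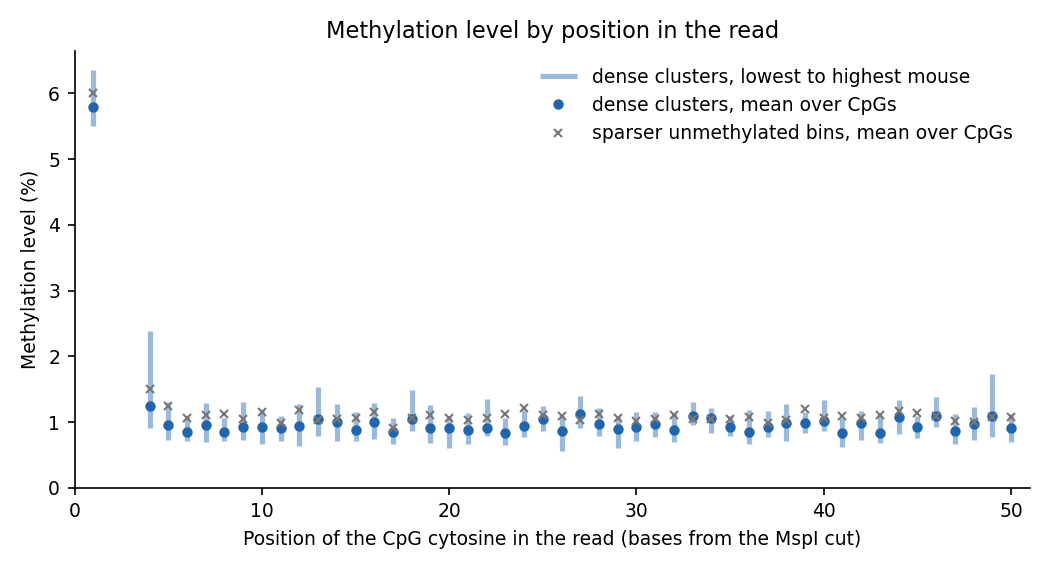
Mean methylation level (%) of CpG cytosines against their position in the read, counted in bases from the MspI cut, with circles for the clusters, bars for the lowest to the highest of 40 mice and crosses for bins of 10 to 29 listed cytosines below 10%. The first base stands at 5.80% in the clusters, and every later position lies between 0.827% and 1.25%.

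Each mouse showed the same contrast. Over the 2730 cluster cytosines read in all 40 mice, which lay in 517 clusters, the 625 first-base cytosines had a level of 5.88% to 6.88% per mouse (median 6.33%), and the 2105 later cytosines of 1.09% to 1.48% (median 1.26%). The ranges did not overlap. The difference within a mouse was 5.06 ± 0.267 percentage points (SD, n = 40), between 4.59 and 5.6, and was above 0 in 40 of 40 mice (paired permutation test by sign flips, two-sided, p = 1e-05, the smallest that 100000 resamples can give). With reads pooled over all cluster cytosines the levels were 5.85% and 0.970%. The excess was not particular to the clusters. In 7766 bins of 10 to 29 listed cytosines with a mean below 10% the first base averaged 6.00% and later bases 1.08%. In bins of 3 or more cytosines and a mean of 80% or more, the first base averaged 90.4% and later bases 90.9%. Within the clusters the first-base level was 6.65% in fragments of 40 to 60 bp, 6.45% at 61 to 80 bp, 5.86% at 81 to 100 bp, 5.13% at 101 to 150 bp and 5.17% at 151 to 300 bp. The median bin mean was 1.33% over all cytosines and 0.413% over later bases alone, and 174 clusters were below 1% by the first measure and 880 by the second.

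**Figure D2:**
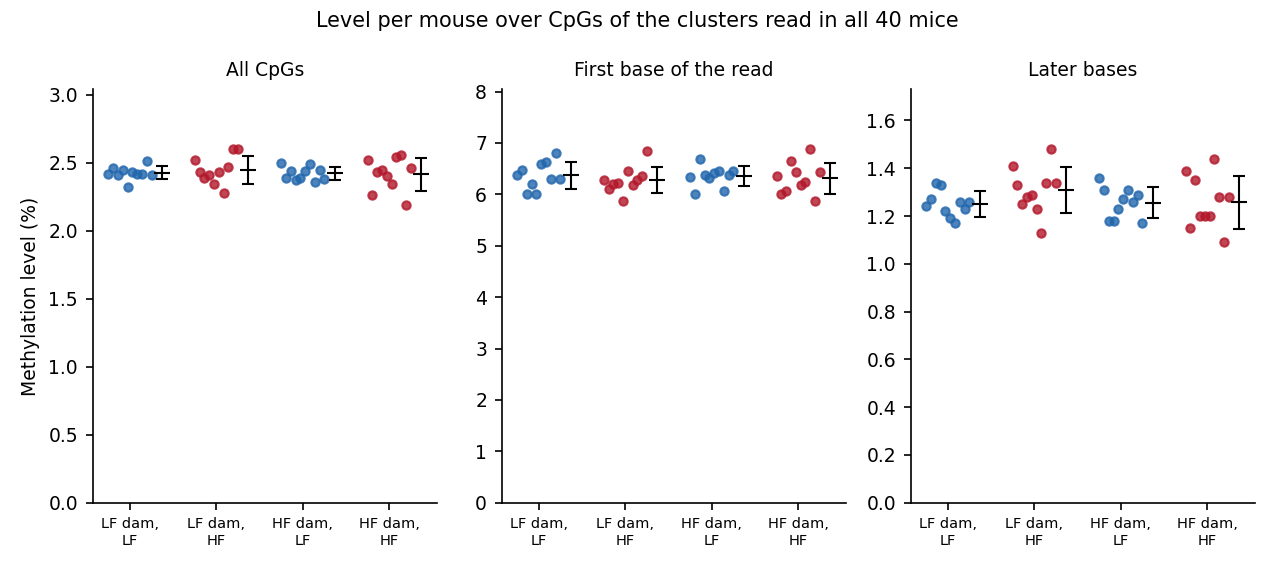
Methylation level (%) of each mouse over the cluster cytosines read in all 40 mice, for all 2730 cytosines, the 625 at the first base of the read and the 2105 at later bases, with blue for LF and red for HF after weaning and bars for the mean and SD of 10 mice. The groups overlap in each panel, and the first-base levels lie between 5.88% and 6.88% against 1.09% to 1.48% for later bases.

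Bin means ran from 0.632% to 9.69%, with quartiles of 1.10% and 1.97%. Of the clusters, 922 (75.7%) were below 2% and 44 (3.61%) at 5% or more. The lowest means belonged to Ipmk (0.632%), Zfp777, a zinc finger gene (0.695%), and Itgb1, the integrin beta 1 chain (0.714%). Just inside the limit were a cluster whose nearest coding start is that of Apaf1, 21335 bp from any start (9.69%), Slc27a3, a fatty acid transport protein (9.58%), and a cluster in Isl2, a homeobox factor (9.22%). Just outside it were bins at Rapgefl1 (10.6%), Pdf (10.7%) and B4galnt4 (10.8%). On the other limit, 114 bins below 10% had exactly 30 listed cytosines, with a median of 1.41%, and 131 had 29, with a median of 1.47%. The most listed cytosines were found in clusters at Gata6, a transcription factor of endoderm (80), at Chd7 (78) and at Pik3cb, a catalytic subunit of phosphoinositide 3-kinase (76). Their bin means were 6.68%, 0.980% and 0.842%, and the later bases alone had 6.40%, 0.342% and 0.289%. The Gata6 cluster lay 1436 bp from the nearest start, within the gene, and the others over the start itself.

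Most clusters lay over promoters. A transcription start of the GENCODE annotation fell inside 932 of 1216 clusters (76.6%) and inside or within 1000 bp of 1130 (92.9%), against 17.7% and 29.1% of all bins with a listed CpG. The 7759 sparser unmethylated bins on assembled chromosomes had 68.0% and 89.0%, and the 43 dense bins of 10% or more outside the left-out segment had 39.5% and 60.5%. These shares describe the bins and were not tested. Of the cluster cytosines, 27.4% lay in untranslated exon sequence, 26.6% in introns, 24.3% in coding exons, 18.3% outside genes and 3.43% in noncoding exons. Clusters with a start inside had a median later-base level of 0.375% (quartiles 0.312% and 0.850%), and the 284 without one had 0.824% (0.372% and 1.99%). A start lay inside 47.7% of the 44 clusters at 5% or more and 77.7% of the others, whereas the median number of CpGs was 90 and 91.0 per kb.

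Inside the clusters the level was lowest at the start and higher further downstream, up to 2000 bp. Later-base cytosines from 200 bp before to 200 bp after a protein-coding start averaged 0.606% and 0.637%, those 800 to 1000 bp downstream 1.91%, and those 1800 to 2000 bp downstream 3.5%. The 2690 cluster cytosines more than 2000 bp from a coding start averaged 1.82%. Upstream the steps had no steady order, with 1.27% at 400 to 600 bp, 0.677% at 600 to 800 bp, 0.920% at 1200 to 1400 bp and 5.68% at 1400 to 1600 bp, the last on 37 cytosines. Over all listed cytosines the levels at the start and in the same downstream steps were 3.29%, 3.15%, 14.2% and 35.6%. Bins that touch a cluster were also low. The bin before it, listed for 519 clusters, had a median later-base level of 0.693%, and the bin after it, listed for 478, of 0.681%. At 4 kb the medians were 50% (61 bins) before and 64.6% (70 bins) after. Few clusters have a listed bin at that distance, and an unlisted bin has no value.

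**Figure D3:**
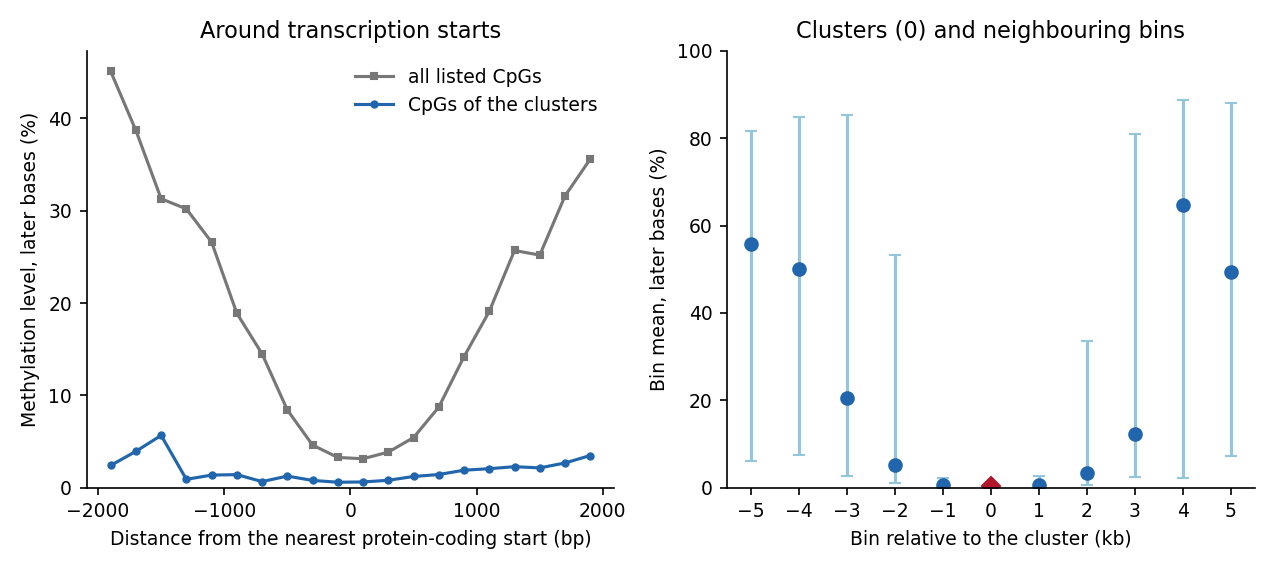
Left, mean methylation level (%) of later-base cytosines in 200 bp steps around the nearest protein-coding start, for the clusters and for all listed CpGs. Right, median later-base level of bins (%) with quartiles for the clusters (0, red) and for listed bins up to 5 kb away, where adjoining bins have medians of 0.693% and 0.681% and bins at 4 kb of 50% and 64.6%.

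Adjoining clusters were uncommon. In all, 1166 clusters stood alone and 26 pairs shared an edge, with no longer run. The pair with the most cytosines (103) covered Sp8, a zinc finger transcription factor, at chr12:120087001-120089000, with bin means of 2.82% and 3.10%. It was followed by Ankrd11, a chromatin regulator, at chr8:125565001-125567000 with 91 cytosines and means of 1.04% and 1.35%, and Syde2 at chr3:145650001-145652000 with 89 cytosines and means of 1.29% and 1.46%. The autosomes each held between 29 (chromosome 16) and 100 (chromosome 5) clusters and chromosome X none, where the table lists 317 cytosines in 85 bins. The fullest bin of chromosome X held 56 and so met the limit on number but not the one on level.

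A further 40 clusters (3.29%) lay more than 5 kb from any annotated start. The densest was in Rims1, which encodes a protein of the synaptic active zone, 62422 bp from a start, with 61 cytosines and a later-base level of 1.20%. Adjoining clusters 19292 and 20292 bp from the nearest start, where the nearest coding gene is Pax3, a developmental transcription factor, had 1.58% and 1.68%. Others were nearest to Otp (1.96%) and Six2 (2.01%), both homeobox genes, and to Runx3 (3.18%), a transcription factor of blood and nerve cells. Their median was 1.27%, with a range of 0.221% to 9.25%, and their median CpG count of 87.0 per kb was close to that of the clusters at starts (93.0).

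Short sequence motifs were counted over each 1 kb bin on both strands, and the bin's base composition bears on every count. The GC box GGGCGG, which Sp1 binds, occurred in 93.8% of clusters, 86.0% of the sparser unmethylated bins and 34.3% of all bins with a listed CpG. TATAAA, the core of the TATA box, had the opposite order, with 10.5%, 19.8% and 36.6%, as had CCAAT, the site of NF-Y, with 52.6%, 61.5% and 70.6%. TCGCGAGA, a motif known from some housekeeping promoters, occurred in 2.71%, 2.37% and 0.495%, and 32 of the 33 clusters with it held a start. The E box CACGTG occurred in 19.5%, 20.2% and 15.6%. CCGGAAGT, bound by ETS factors and itself containing an MspI site, occurred in 7.15%, 7.54% and 4.23%, and its core CGGAAG in 48.9%, 47.7% and 30.3%. A match shows only that the letters are present.

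Of 22238 protein-coding genes in the annotation, 1217 (5.47%) had a start in or within 1000 bp of a cluster, and 13199 had any listed CpG there. Among 21 signalling and cell cycle genes 6 did: Cdkn2a, Smad3, Smad7, Wnt7b, Fzd1 and Jag1. The cluster at Smad3, a transducer of TGF-beta signals, held 50 cytosines at a later-base level of 0.295%, and that at Jag1, a Notch ligand, 39 at 0.484%, while Cdkn2a had 1.81% and Wnt7b 1.22%. Among 38 developmental transcription factors the members were Pax2, En2, Msx1 and Foxd3. En2 held 41 cytosines at 0.621% and Msx1 40 at 0.737%, while Pax2 had 2.20% and Foxd3 2.28%. Among the hepatocyte transcription factors, the cluster at Cebpa held 43 cytosines at 0.364%. The housekeeping list gave 1 of 18, Actb (30 cytosines, 0.779%), and the imprinted genes 1 of 17, Grb10 (33 cytosines, 1.54%). None of 18 hepatocyte secreted and metabolic genes, 21 cholesterol synthesis genes, 13 germline genes and 14 genes of the DNA methylation machinery had one, although 6, 17, 10 and 13 of them had a listed CpG near a start. These counts are descriptions and depend on where MspI cuts. The labelled tissue cannot be checked from them: none of the marker genes of hepatocytes (10), leukocytes and Kupffer cells (7), endothelium (3), bile ducts (4) or stellate cells (3) had a cluster, and only 6, 2, 1, 4 and 2 had a listed CpG near a start.

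Some clusters held methylated cytosines beside unmethylated ones. Of all cluster cytosines 630 were at 10% or more, 253 of them first bases and 377 later ones in 149 clusters, and 14 in 9 clusters were at 50% or more. Stretches from 4 clusters are printed on the + strand of NCBI37/mm9, with the CpGs read at 50% or more in capitals, to show where they lie among the other CpGs.
Pom121, chr5:135870765-135870874, + strand: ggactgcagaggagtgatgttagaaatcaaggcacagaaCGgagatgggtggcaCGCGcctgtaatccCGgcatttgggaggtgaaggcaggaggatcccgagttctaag
Rab11fip5, chr6:85324066-85324157, + strand: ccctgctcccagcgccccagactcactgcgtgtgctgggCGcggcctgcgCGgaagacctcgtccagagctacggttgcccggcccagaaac
Spnb4, chr7:28193113-28193201, + strand: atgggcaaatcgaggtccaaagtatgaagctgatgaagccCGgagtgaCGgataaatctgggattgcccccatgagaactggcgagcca
Aqp5, chr15:99421918-99421998, + strand: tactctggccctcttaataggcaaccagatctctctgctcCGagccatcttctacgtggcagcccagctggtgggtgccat
In the cluster at Pom121, which encodes a nuclear pore protein, 4 cytosines of the - strand at -389, -404, -406 and -418 bp from the coding start were read at 51.7%, 52.4%, 71.2% and 69.3%. They were all on 1 stack of reads, that is reads from the same cut and strand. The other 27 cytosines of that bin averaged 1.45%. In a coding exon of Rab11fip5, an effector of vesicle trafficking, 2 cytosines 522 and 511 bp downstream of the start had 69.4% and 74.7%. Of the 9 listed cytosines in the printed stretch, the 2 first-base ones had 6.69% and 7.41%. The 7 others reached from 9.17% to 74.7%, with a median of 44.3%, so that low and high cytosines stood within one short stretch. In an intron of Spnb4, a spectrin of neurons, a first-base cytosine had 76.0% ± 8.67 (SD, n = 40) and its neighbour at base 9 of the read 56.1% ± 10 (SD, n = 40), while the other 32 averaged 2.45%. The highest level of any cluster cytosine was 90.7% ± 7.42 (SD, n = 33) at chr15:99421958, in a coding exon of Aqp5, a water channel, with 73.3% in the lowest mouse. The 30 other cytosines of that bin averaged 3.55%. Lrfn1, a synaptic adhesion gene, had a single cytosine of 77.5% ± 9.72 (SD, n = 40) among 34 that averaged 1.86%.

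The level of a mouse over the clusters was then compared between diets. Over the cytosines read in all 40 mice it was 2.32% to 2.51% (median 2.42%) in LF_LF mice, 2.28% to 2.60% (2.43%) in LF_HF mice, 2.36% to 2.5% (2.42%) in HF_LF mice and 2.19% to 2.56% (2.44%) in HF_HF mice. All groups overlapped. The maternal difference, HF minus LF dams, was -0.0312 percentage points (95% interval -0.137 to 0.0748, permutation p = 0.542) in mice fed HF after weaning and -0.000707 (-0.0467 to 0.0453, permutation p = 0.974) in mice fed LF. The post-weaning difference was 0.0229 (-0.0526 to 0.0984, permutation p = 0.534) in mice born from LF fed dams and -0.00765 (-0.0952 to 0.0799, permutation p = 0.858) in mice born from HF fed dams. Adjusted over the 4 comparisons each p was 0.974, and the maternal effects in the 2 post-weaning diets differed by -0.0305 (permutation p = 0.582).

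Neither measure of the libraries passed a test of its relation to the level of a mouse. The level was related to the total reads with r = -0.244 (permutation p = 0.128, adjusted 0.255) and rho = -0.167 (permutation p = 0.302, adjusted 0.361, n = 40). Without the 2 mice farthest from the median depth r was 0.00153. Within groups of 10 mice r was -0.611 (LF_LF), -0.305 (LF_HF), 0.274 (HF_LF) and -0.250 (HF_HF). No bin of 30 or more cytosines reached 90%, so the level was also set against that in bins of 3 or more cytosines and 90% or more, over 4011 cytosines: r = -0.149 (permutation p = 0.357, adjusted 0.357), rho = -0.147 (permutation p = 0.361, adjusted 0.361), and r = 0.148 without the 2 farthest mice. Within the groups that r was -0.210, -0.529, 0.0922 and 0.0349. The median reads per cytosine in the clusters (20 in the median mouse) were lower than in the dense bins of 10% or more (21) in 33 of 40 mice and equal in the others (mean difference -1.12 ± 0.723, SD, n = 40, paired permutation p = 1e-05, the smallest possible). The mean reads per cytosine were 20.6 in the clusters and 60.4 in those bins in the median mouse, lower in the clusters in 40 of 40 mice (mean difference -45.0 ± 16.0, SD, n = 40). The share of cluster cytosines without a value was 0% to 53.6% per mouse and higher than in those bins by 0.919 ± 2.10 points (SD, n = 40, 23 mice higher and 14 lower, paired permutation p = 0.00738).

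Bin by bin, no cluster passed a false discovery rate (FDR) of 5% in any of the 4 comparisons (Benjamini-Hochberg adjustment over all bins tested), nor did any with limma. The exact Wilcoxon test was run only where every mouse of both groups had a value. It covered 367 and 852 clusters for maternal diet (mice fed HF and LF) and 573 and 536 for post-weaning diet (LF and HF dams), and none passed. At least 3 cytosines covered in 36 or more mice were required, which left 1207 of the 1218 clusters, or 1206 in the post-weaning comparison of mice born from LF fed dams. The level of a cluster in a mouse is the mean over these tested cytosines alone, which can lie far from the bin mean. Of all 30682 bins tested in each maternal comparison, 0% passed the FDR. In the post-weaning comparisons 0.00326% of 30679 bins (1 bin, not a cluster) and 0% of 30685 bins did. At an unadjusted p below 0.05 there were 56 clusters (4.64%) for maternal diet in mice fed HF, where 4.82% of all bins were called, and 58 (4.81%) in mice fed LF, against 5.48%. For post-weaning diet they were 62 (5.14%) in mice born from LF fed dams, against 5.32%, and 56 (4.64%) in mice born from HF fed dams, against 5.72%. The difference between these shares was not tested. The median difference was -0.0239, -0.0157, 0.00976 and -0.00671 percentage points in the same order, and -0.110, 0.0709, 0.0472 and -0.131 over all bins. The middle 95% of cluster differences lay within -0.808 to 0.825 points in all 4 comparisons, with median standard errors of 0.283 to 0.302. Comparisons that share a group are not independent of each other.

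**Figure D4:**
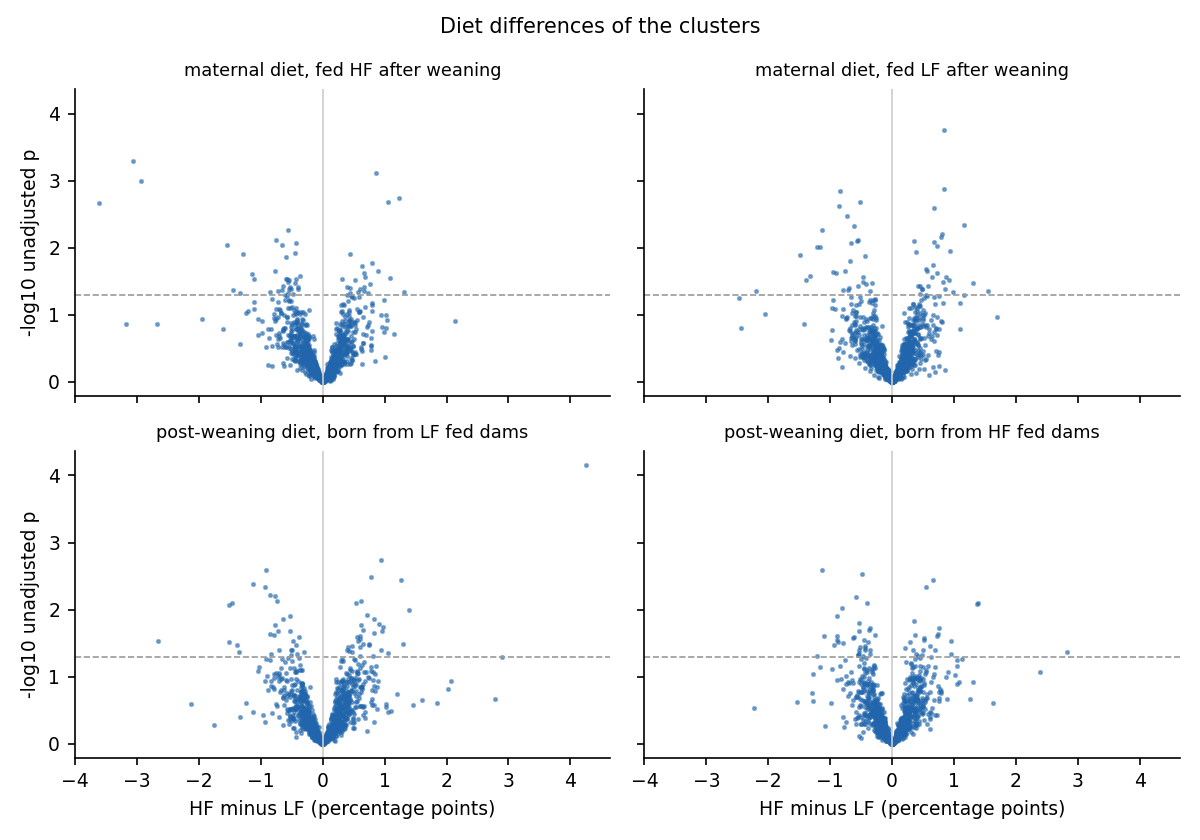
Difference in bin methylation level, HF minus LF (percentage points), of each cluster tested against -log10 of its unadjusted p in the 4 comparisons, with a dashed line at p = 0.05. No cluster passed an FDR of 5%, and the point farthest up is the cluster near the start of Mosc1, at 4.25 points.

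The smallest p of any cluster was that of chr1:186634001-186635000, within Mosc1, 76 bp from its start. Mosc1 encodes a mitochondrial enzyme that reduces N-hydroxylated compounds. Over all mice its 32 cytosines averaged 7.53%, and those after the first base 6.47%. Its densest 240 bases are given with CCGG in capitals.
Mosc1, chr1:186634761-186635000, + strand: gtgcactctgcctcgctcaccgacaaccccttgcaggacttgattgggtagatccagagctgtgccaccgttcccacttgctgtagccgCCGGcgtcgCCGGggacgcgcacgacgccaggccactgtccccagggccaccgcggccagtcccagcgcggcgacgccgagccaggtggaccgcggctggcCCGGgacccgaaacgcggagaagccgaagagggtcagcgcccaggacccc
The cluster level was 2.87% to 7.99% (median 6.10%) in LF_LF mice, 7.34% to 12.9% (9.50%) in LF_HF mice, 5.09% to 9.19% (7.18%) in HF_LF mice and 5.26% to 8.58% (7.15%) in 8 HF_HF mice. LF_HF mice were the highest group and LF_LF mice the lowest, with an overlap between 7.34% and 7.99%. In mice born from LF fed dams the post-weaning difference was 4.25 ± 0.828 points (SE, exact permutation p = 3.25e-05, n = 10 and 10, FDR 0.426), and 29 of the 32 cytosines were higher in LF_HF mice. In mice born from HF fed dams it was -0.240 ± 0.566 points (SE, FDR 0.975). The 32 cytosines lay on 6 stacks of reads with a median of 23.0 reads. The SD between mice of a group was 1.55 points, above the 1.02 points that read sampling gives if the CpGs of a read vary independently and below the 2.34 points if they vary as 1.

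For maternal diet in mice fed HF the smallest p-values were at Arhgef2, an activator of the GTPase RhoA, and 1401 bp from a start near Zfp238, a transcriptional repressor. Arhgef2 had 5.44% to 9.90% (median 7.56%) in LF_HF mice and 2.49% to 6.23% (4.82%) in HF_HF mice, a difference of -3.06 ± 0.696 points (SE, exact permutation p = 0.000576, n = 9 LF_HF and 8 HF_HF, FDR 0.966). In mice fed LF it had 2.68% to 14.8% (4.99%) with LF dams and 1.60% to 5.66% (3.65%) with HF dams, which was the largest fall there at -2.48 ± 1.21 points (SE, exact permutation p = 0.0232, n = 9 LF_LF and 10 HF_LF, FDR 0.909). Without mouse 13, an LF_LF mouse at 14.8%, this difference was -1.40 points (exact permutation p = 0.0566). All these groups overlapped, and the 28 cytosines lay on 4 stacks. Near Zfp238 the level was 0% to 1.40% (0.980%) in LF_HF mice and 1.24% to 2.76% (1.65%) in HF_HF mice, a difference of 0.863 ± 0.212 points (SE, exact permutation p = 0.000260, n = 9 LF_HF and 10 HF_HF, FDR 0.966), which was 0.398 without first-base cytosines. The maternal difference near Zfp238 in mice fed LF was -0.0352 ± 0.256 points (SE, FDR 0.997). The largest fall was at Shc2, a signalling adaptor, at -3.61 ± 0.988 points (SE, FDR 0.966), on 8 cytosines of 1 stack. The largest rise was at Gpr27, an orphan receptor, at 2.14 ± 1.31 points (SE, FDR 0.981), or 1.20 without first-base cytosines and 1.36 without mouse 123, an HF_HF mouse at 13.3%.

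For maternal diet in mice fed LF the smallest p-values were at Ptprj, a receptor tyrosine phosphatase, and Usp12, a deubiquitinase. Ptprj had 0% to 1.37% (median 0.478%) in LF_LF mice and 1.11% to 2.23% (1.31%) in HF_LF mice, a difference of 0.833 ± 0.177 points (SE, exact permutation p = 0.000314, n = 10 and 10, FDR 0.895). Usp12 had 0% to 1% (0.681%) in LF_LF mice and 0.292% to 2.67% (1.5%) in HF_LF mice, a difference of 0.836 ± 0.221 points (SE, exact permutation p = 0.000866, n = 10 and 10, FDR 0.895). Groups overlapped in both clusters. Without first-base cytosines the differences were 0.190 and 0.128 points. The largest rise, 1.69 ± 0.996 points (SE, FDR 0.914) at Tcfap2e, a transcription factor, was 0.369 without them.

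For post-weaning diet, the next smallest p in mice born from LF fed dams was at Eif3d, a translation initiation factor. It had 0.350% to 1.70% (median 0.855%) in LF_LF mice and 0.817% to 3.02% (1.87%) in LF_HF mice, a difference of 0.950 ± 0.257 points (SE, exact permutation p = 0.00210, n = 9 LF_LF and 10 LF_HF, FDR 0.879) that was 0.132 without first-base cytosines. The largest fall was -2.65 ± 1.10 points (SE, FDR 0.920) at Ldb1, a cofactor of LIM homeobox factors, on 3 cytosines of 1 stack. In mice born from HF fed dams, Tbc1d9 had 1.40% to 4.33% (2.31%) when fed LF and 0.909% to 1.58% (1.39%) when fed HF, a difference of -1.13 ± 0.321 points (SE, exact permutation p = 0.000606, n = 10 HF_LF and 9 HF_HF, FDR 0.744). Socs1, an inhibitor of cytokine signalling, had 1.25% to 1.87% (1.54%) when fed LF and 0.536% to 1.71% (1%) when fed HF, a difference of -0.494 ± 0.142 points (SE, exact permutation p = 0.00358, n = 10 HF_LF and 9 HF_HF, FDR 0.744), or -0.0768 without first-base cytosines. The largest rise was at Mast3, a kinase, at 2.83 ± 1.30 points (SE, FDR 0.866), and the largest fall at Pom121, at -2.23 ± 2.02 points (SE, FDR 0.925), which was -0.497 when each cytosine was centred on its own mean and -0.765 without mouse 181, an HF_HF mouse at 4.43%. None of these differences passed the adjustment, and within each pair of groups some mice overlapped.

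**Figure D5:**
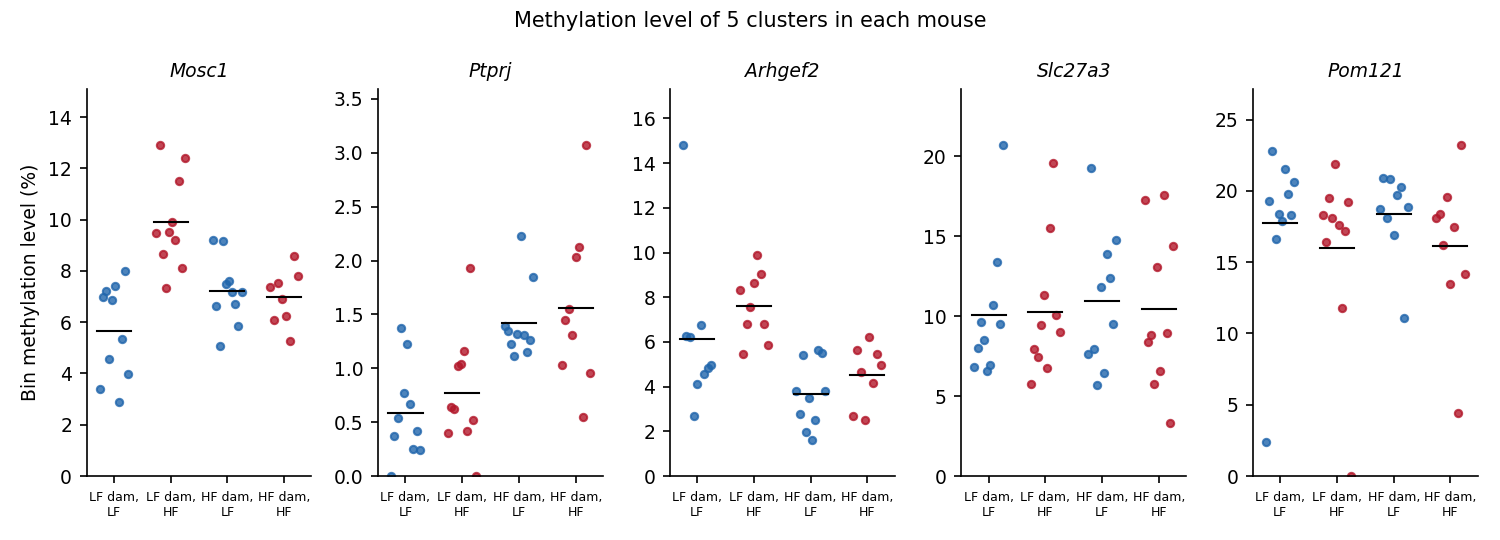
Methylation level (%) of 5 clusters in each mouse, with blue for LF and red for HF after weaning and a line at the group mean. LF_HF mice lie highest at Mosc1 and mice born from HF fed dams are higher at Ptprj and lower at Arhgef2, with overlap and no difference past an FDR of 5%, while at Slc27a3 mice spread widely within each group and at Pom121 a few mice lie far below the rest.

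No single cluster cytosine passed an FDR of 5% in the 4 comparisons, in which 0%, 0%, 0.000840% and 0.00124% of all tested cytosines did, in the order used for the bins. At an unadjusted p below 0.05 there were 512 of 23350 (2.19%), 498 of 23645 (2.11%), 489 of 22969 (2.13%) and 514 of 24015 (2.14%), where 3.72%, 3.99%, 4.03% and 4.06% of all cytosines tested were called. The difference between these shares was not tested. Cytosines at 0% in every mouse with a value in both groups have no test. The smallest p belonged in 3 of the 4 comparisons to a first base of the read. At Pik3r1, the regulatory subunit of phosphoinositide 3-kinase, chr13:102537758 had 5.66% to 12.0% in LF_LF mice and 0% to 5.13% in HF_LF mice, with no overlap, a difference of -6.84 ± 0.882 points (SE, exact permutation p = 1.08e-05, the smallest possible, n = 10 and 10, FDR 0.0902). Tested among cytosines read in all 40 mice alone, this cytosine, chosen here after its values were seen, had an FDR of 0.0122. The cluster that holds it differed by 0.120 points (FDR 0.990). At Pax2, a developmental transcription factor, chr19:44830552 had 4.76% to 13.6% in HF_LF mice and 0% to 3.33% in HF_HF mice, a difference of -7.90 ± 1.07 points (SE, exact permutation p = 1.08e-05, n = 10 HF_LF and 9 HF_HF, FDR 0.0616), and its cluster 0.194 points (FDR 0.951).

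The pooled SD between mice of the same group had a median of 0.643 percentage points over 1207 clusters, whose low means limit it, with quartiles of 0.528 and 0.870 and a 95th percentile of 1.38. For single cytosines the variance between mice was 1.23 times that of read sampling at first bases (5053 cytosines) and 1.26 times at later bases (23520). The cytosines of a cluster are not independent measurements, since the clusters rest on 8206 stacks of reads in all, a median of 7 per cluster with a median of 6 listed cytosines each. The largest SD was found at Pom121 (5.19 points), Slc27a3 (4.44) and Nfkb1, a subunit of the transcription factor NF-kappaB (4.07). At Pom121 the levels rest on 15 of 31 listed cytosines, with group means of 16.0% to 18.4% against a bin mean of 9.16%. At Slc27a3 the level ranged from 6.60% to 20.7% in LF_LF mice, 5.73% to 19.6% in LF_HF mice, 5.68% to 19.3% in HF_LF mice and 3.35% to 17.6% in HF_HF mice, with medians of 9.00%, 9.23%, 10.7% and 8.91%. The groups covered nearly the same range. These values rest on 13 cytosines of 2 stacks, for which read sampling gives an SD of 1.93 points if CpGs vary independently and 4.88 if the CpGs of a read vary as 1. Nfkb1 rests on 3 cytosines of 1 stack, with 2.64 and 4.24 points. Pom121 exceeded both values (1.74 and 3.37 points), and its SD was 2.64 points when each cytosine was centred, a setting in which a mouse no longer gains or loses from which cytosines were read.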

How the data were processed

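RRBS data from 40 mouse livers, 10 per group, were used. The authors cut DNA with MspI, prepared libraries, selected library molecules of 150 to 600 bp, sequenced single-end reads of 50 bases and aligned them to mm9 with Bismark, whose version is not given in the sources used here. They deposited a count of methylated reads and a count of all reads per CpG cytosine and mouse, and their ratio as a fraction. The deposited total counts and fractions are missing below 10 reads, and levels were computed from the counts. The members and the gene lists were chosen with earlier results of these data known. Position in the read is the distance to the nearest upstream CCGG on the same strand of NCBI37/mm9, and starts are those of GENCODE vM1.

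Diets were compared with the two-sided Student's t-test of the study, per bin (cytosines with 10 or more reads in at least 36 mice, at least 3 per bin, 0.5 of them or more read in a mouse) and per cytosine, with Benjamini-Hochberg adjustment over the whole table. Levels per mouse were compared with permutation tests (100000 resamples). The design gave no batch, litter or lane. Named were the 3 clusters with the most cytosines, the lowest means, the means nearest 10% on either side, the widest range of cytosines, the largest SD and the longest runs. In each comparison the 2 smallest p-values and the largest rise and fall were named. The plan was to name up to 2 genes per list, but more are named from the signalling and developmental lists. A result of the hepatocyte transcription factor list is not reported here. Single cytosines, clusters far from starts and Rab11fip5 were named after their values were seen. Alternatives were pooled reads, centred cytosines, 20 reads, 10 cytosines per bin, Welch's test, the exact Wilcoxon test, limma on log2 ratios with 0.5 added, and total reads as a covariate. Depth limits precision to counting error per cytosine, and no molecular identifiers are described. The scripts were tested on simulated data. Python 3.11.15, numpy 2.4.6, scipy 1.17.1, pandas 2.3.3, R 4.3.3 and limma 3.58.1 were used.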

Additional observations from a re-analysis of the deposited data

Results flagged for a closer look

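In 13 of 120 groups of mice examined, the highest or lowest mouse stood apart from the rest by Dixon's ratio of its gap to the range of the group. Chance gives this in about 1 in 20 groups, a rate that does not hold for clusters named for their SD or their differences, as most of these were. Mouse 101 had the lowest level over the clusters among LF_LF mice, 2.32%, the next being 2.41%. At Pom121 the lowest mice were mouse 13 (2.42%, next 16.6%) in the LF_LF group, mouse 209 (0%, next 11.8%) in the LF_HF group and mouse 177 (11.1%, next 16.9%) in the HF_LF group. Mice 13 and 209 had reads at 11 and 8 of the 15 tested cytosines of this cluster and were -0.320 and -0.925 points from the mean of those cytosines, while mouse 177 had all 15 and was -7.21 points from it. Both mice with missing cytosines were among the 5 with fewer than 5000000 reads.

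At Arhgef2, mouse 13 was the highest LF_LF mouse at 14.8% (next 6.74%), with 15 of 28 cytosines read and 7.70 points above their mean. At Slc27a3, mouse 211 of the LF_LF group had 20.7% (next 13.4%) with all 13 cytosines read. At Nfkb1 the highest mice were mouse 128 (15.7%, next 8.05%) in the HF_LF group and mouse 172 (10%, next 5.56%) in the HF_HF group, on 3 cytosines of 1 stack of reads. Mouse 128 was also the highest HF_LF mouse at Spnb4, with 21.6% (next 18.1%). That level rests on 11 of 34 listed cytosines, in a cluster with a bin mean of 6.19%. Mouse 23 of the LF_HF group had 15.2% (next 9.47%) at Tcfap2e. Near Zfp238, mouse 124 of the HF_HF group had 2.76% (next 2.01%), and at Zfp777, mouse 55 of the HF_LF group had 1.83% (next 0.807%). At Usp12, mouse 100 of the LF_LF group had 0% (next 0.476%).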

How the results depend on the processing

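The number of clusters depends on the limits. With 20 or more listed cytosines there were 3449, with 40 or more 381, and 287 when only cytosines read in 36 or more mice were counted. A limit of 5% or 20%, a grid shifted by 500 bp, pooled reads, and the mean without first bases each left it within 1.5 times of 1218. No cluster passed the FDR under any alternative for bins (40 values, smallest FDR 0.247). The share of clusters at an unadjusted p below 0.05 stayed between 3.56% and 5.39%, except with a minimum of 20 reads, where 10 clusters could be tested and it was 0%, 10%, 10% and 0% in the order of the report. For cytosines that minimum left 84 to 86 of them and gave 4.65%, 3.57%, 3.49% and 2.35% in the same order. Among cytosines read in all 40 mice, 1 cluster cytosine, at Pik3r1, passed the FDR for maternal diet in mice fed LF. The 15 differences of single clusters kept their sign in 107 of 107 values, and each also without the mouse that moved it most, chosen after seeing the data. They had been picked for their p or size and every alternative reuses the same mice, so the sign is no independent support. Several were much smaller without first-base cytosines, as given above. At Mosc1 the difference ranged from 3.34 to 4.48 points and the FDR from 0.247 to 0.792, or 0.911 with limma.

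Differences in the level of a mouse, none past the threshold in the main analysis, changed sign under some settings. With a minimum of 20 reads, which left 9 cytosines, the maternal differences were 0.282 and 0.0433 points (mice fed HF and LF), the post-weaning difference with HF dams 0.480 and the interaction 0.239. The post-weaning difference with HF dams was 0.0377 over all cytosines with a value, 0.0186 with cytosines centred and 0.00222 without the 5 mice under 5000000 reads. Without those 5 mice the maternal difference in mice fed HF was -0.00431 and the post-weaning difference with LF dams 0.00482. With cytosines centred the post-weaning difference with LF dams was 0.0376 (permutation p = 0.0515) and the maternal difference in mice fed HF -0.0356 (permutation p = 0.0602). Over all cytosines with a value the maternal difference in mice fed LF was -0.0298 (permutation p = 0.183) and the interaction 0.00348. Leaving out first bases, added after seeing the data, gave 0.00531 for maternal diet in mice fed LF, 0.000612 for post-weaning diet with HF dams and 0.0562 with LF dams, and correlations of 0.0121 with total reads and 0.270 with the level in bins of 90% or more. With reads also pooled over all cytosines, the post-weaning difference with HF dams was 0.0129, and the maternal difference in mice fed HF was -0.0405 points (0.957% against 0.998%, permutation p = 0.0188, adjusted 0.0752). That in mice fed LF was -0.0354 (adjusted 0.145). The causes of these shifts were not tested. The excess at the first base kept its size under every setting, at 4.87 and 4.88 points.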
